A study of Mus musculus with 4 samples.

Results

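The genes described here are 37 type I interferon-stimulated genes, a fixed list of symbols that was looked up among the 32285 mouse genes counted in each cell. All 37 were found, each once. Membership is defined by symbol alone, but the list was chosen with earlier results of these data known. RNA was counted in single leukocytes of KPC tumors, which grow under the skin of male C57BL/6 mice after injection of a pancreatic cancer line from a genetically engineered Pdx1-Cre mouse. The line stands for 1 tumor genotype. Mice of the untreated group received no agonist. Mice of the STING group received ADU-S100, an agonist of the cytosolic DNA-sensing adaptor STING, once into the tumor. Mice of the LTβR group received repeated intraperitoneal doses of 4H8, an agonistic antibody to the lymphotoxin-β receptor, and mice of the combination group received both. By the paper's schedule, tumors were taken at resection, days after the last antibody dose and longer after the single ADU-S100 injection. Tumors of a group were pooled before live CD45+ cells were sorted, so each group was 1 library and no value per animal exists. With 1 library per group no difference could be tested, no p-value is given, and the intervals below cover counting error only.

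Type I interferons are secreted when DNA sensors such as cGAS and STING, or RNA sensors such as MDA5, activate IRF3 and IRF7. They bind the receptor chains Ifnar1 and Ifnar2 on nearly every cell and act through Jak1 and Tyk2 on a complex of factors that includes Stat2 and Irf9. This complex binds interferon-stimulated response elements in promoters and switches on a shared set of antiviral genes. Interferon-γ uses another receptor, and part of its program overlaps with this set. In tumors, type I interferon is known for its action on dendritic cells that prime T cells.

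By role, the members fell into 6 groups. The 16 antiviral effectors were the RNA-binding Ifit proteins (Ifit1, Ifit1bl1, Ifit2, Ifit3, Ifit3b), the 2-5A synthetases and their relatives (Oas1a, Oas2, Oas3, Oasl1, Oasl2), viperin (Rsad2) with its neighbor Cmpk2, the exonuclease Isg20, tetherin (Bst2), Samd9l and Slfn5. The ISG15 system held 3 members, the ubiquitin-like Isg15, its protease Usp18 and the ligase Herc6. Sensors and kinases were Ifih1 (MDA5), Dhx58 (LGP2), Zbp1 and Eif2ak2 (PKR). Transcription and ADP-ribosylation members were Irf7, Stat2, Parp9, Parp14 and Dtx3l. The PYHIN family, which includes DNA-binding proteins, held Ifi203, Ifi204, Ifi209 and Ifi213. The remaining 5 members were Ifi27l2a, Ifi44, Xaf1, Rtp4 and Trim30a.

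Several members are neighbors in the genome (build GRCm38.p6). The 5 Ifit genes lie on chromosome 19 between 34550694 and 34650009, a span of 99.3 kb. Rsad2 and Cmpk2 lie within 37.1 kb on chromosome 12, the 4 PYHIN genes within 376 kb on chromosome 1, and Parp9, Parp14 and Dtx3l within 140 kb on chromosome 16. The pairs Ifit3 and Ifit3b, and Ifit1 and Ifit1bl1, as well as the Oas, Oasl and PYHIN relatives, are similar in sequence, so reads may have been split between them and their single values are uncertain.

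Promoter sequence was examined for the response element. RefSeq promoter windows, 250 bases before to 50 bases after the start, were matched for 28 of the 37 members. The motif GAAANNGAAA, the core of the response element, was searched on both strands (TTTCNNTTTC on the other), with overlapping matches counted. At least 1 match lay in 16 of these 28 members and at least 2 in 6 of them. By window, 18 of the 34 member promoters (52.9%) held it, against 1131 of all 32851 promoters of the same length (3.44%). Among the comparison lists, 1 of 10 matched interferon signalling genes and 5 of 6 matched interferon-γ-induced genes held it. The stretches around the matches are shown for the 6 members with at least 2 matches and for Rsad2, and of the 5 members followed most closely below, Isg15, Ifit3 and Rsad2 are among them. The window of Irf7 held no match. Each is written 5′ to 3′ on the strand of the gene in build GRCm38.p6, and capitals mark the motif, with overlapping matches run together. Isg15 (chr4:156200860-156200911, minus strand) had 3 overlapping matches, the nearest 66 bases before the start. Ifit1 (chr19:34640770-34640828, plus strand), Ifit3 (chr19:34583358-34583431, plus strand) and Ifit3b (chr19:34607754-34607827, plus strand) had 2 each, and the Ifit3 and Ifit3b stretches have the same letters. Oas1a (chr5:120907526-120907560, minus strand) and Bst2 (chr8:71537572-71537617, minus strand) had 2 overlapping matches each, and Rsad2 (chr12:26456548-26456587, minus strand) had 1. A match describes these letters and is not evidence of binding.
Isg15: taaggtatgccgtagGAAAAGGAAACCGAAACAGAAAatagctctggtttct
Ifit1: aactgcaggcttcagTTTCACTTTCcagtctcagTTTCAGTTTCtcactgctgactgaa
Ifit3: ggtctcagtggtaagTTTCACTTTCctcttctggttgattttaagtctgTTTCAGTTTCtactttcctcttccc
Ifit3b: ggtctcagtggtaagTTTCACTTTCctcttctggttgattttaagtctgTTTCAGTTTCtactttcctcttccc
Oas1a: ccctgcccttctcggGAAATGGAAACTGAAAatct
Bst2: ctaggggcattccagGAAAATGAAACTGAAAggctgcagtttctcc
Rsad2: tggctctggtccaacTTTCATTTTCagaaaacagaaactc

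After filtering, 23011 of 24839 barcodes (92.6%) were kept, between 3748 and 7147 cells per library, with a median of 5750 to 7094 unique molecular identifiers (UMIs, each a counted RNA molecule) per cell. Of 22765 distinct barcode sequences, 246 occurred in more than 1 library. Cells were grouped into 25 clusters without using the members, and 22 clusters were given 1 of 7 class names from marker genes. The ending "-like" marks that the names rest on RNA alone. The defining markers fitted, with Cd3e at 975 counts per 1000000 UMIs (CPM) in T-like cells and at most 51.3 elsewhere, Ncr1 at 276 in NK-like cells, Cd79a at 2025 in B- or plasma-like cells, Csf1r at 608 in macrophage- or monocyte-like cells, and Siglech at 1952 in plasmacytoid dendritic-like cells. The 3 unnamed clusters held between 7.18% and 10.4% of each library. The levels below are in CPM, scaled to all UMIs of the same class and library, and are given in the order untreated, STING, LTβR and combination.

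The members together made up the largest fraction of RNA in neutrophil-like and macrophage- or monocyte-like cells and the smallest in NK-like and B- or plasma-like cells. Their summed level was 9416, 11724, 10885 and 13137 CPM in the neutrophil-like class and 11339, 10266, 10415 and 9616 in the macrophage- or monocyte-like class. NK-like cells had 1992, 1923, 2078 and 2157. Macrophage- or monocyte-like cells, the most numerous class, held 69.6% of all member UMIs of the untreated library while holding 52.4% of its total UMIs. In the combination library these shares were 62.4% and 39.7%. T-like cells held 7.92% of member UMIs in the untreated library and 16.9% in the combination library, with 17.7% and 28.6% of total UMIs.

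**Figure D1:**
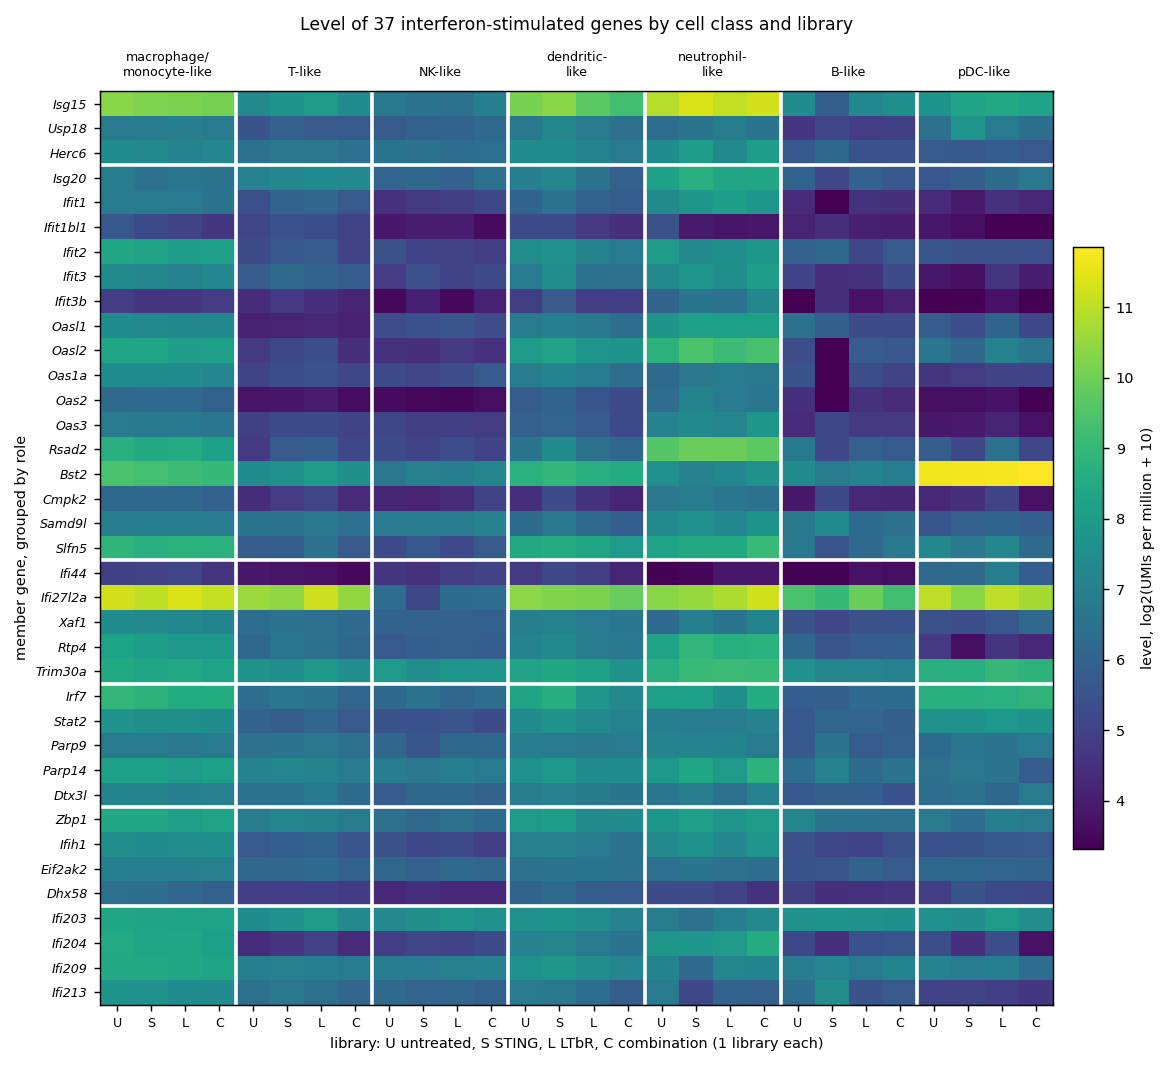
Level of each of the 37 members (rows, grouped by role) in the 7 cell classes, with the 4 libraries as columns within each class, as log2 of CPM after adding 10 (color scale, yellow highest). Most antiviral effectors are brightest in the neutrophil-like and macrophage- or monocyte-like columns, while Bst2 is at 3247 to 3687 CPM in the plasmacytoid dendritic-like class.

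The classes differed in which members they carried. Ranked by level, a macrophage- or monocyte-like value was the highest of the 7 classes for 22, 15, 16 and 13 of the 37 members in the 4 libraries, and a neutrophil-like value for 13, 18, 16 and 22. For 22 members the same class came first in all 4 libraries. Isg15 was highest in neutrophil-like cells in every library, with 1905, 2722, 2149 and 2438 CPM, against 1282, 1160, 1137 and 1082 in macrophage- or monocyte-like cells. Its intervals in these classes did not overlap in any library, the closest being 1806 to 2008 and 1268 to 1295 in the untreated library. In NK-like cells Isg15 was at 98.3, 88.3, 81.8 and 119.

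Rsad2, the antiviral enzyme viperin, followed the same order with 765, 944, 938 and 821 CPM in neutrophil-like cells and 403, 353, 366 and 272 in macrophage- or monocyte-like cells. Every other class was at or below 168 in each library. Irf7, the factor that amplifies interferon production, had levels of 490, 443, 370 and 383 in macrophage- or monocyte-like cells and of 411, 402, 419 and 463 in plasmacytoid dendritic-like cells, whose counting intervals overlapped in the STING, LTβR and combination libraries (433 to 454 and 341 to 471 in the first). In neutrophil-like cells Irf7 was at 269, 286, 182 and 378. Ifit3 in macrophage- or monocyte-like cells was at 160, 146, 124 and 143, and in neutrophil-like cells at 159, 209, 179 and 263.

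Ifi27l2a, a small mitochondrial membrane protein gene, separated lymphoid classes from each other. It was at 1499, 1387, 2364 and 1422 CPM in T-like cells and at 73.9, 25.7, 70.7 and 75.6 in NK-like cells. B- or plasma-like cells had 669, 517, 981 and 614, and plasmacytoid dendritic-like cells 2022, 1273, 2062 and 1659. Macrophage- or monocyte-like cells had 2510, 2078, 2652 and 2183. NK-like cells were thus the lowest of these classes for Ifi27l2a in every library.

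Plasmacytoid dendritic-like cells, the cell type known for secreting type I interferon, carried a narrow part of the list. Bst2, a surface protein used as a marker of this cell type, was at 3247, 3338, 3405 and 3687 CPM. Trim30a was at 393, 405, 500 and 443. By contrast, Ifit3 counted 5, 1, 9 and 2 UMIs, Ifit1 11, 2, 8 and 3, and Rtp4 18, 1, 9 and 3 in this class. Only 19 of the 37 members reached 50 UMIs in the untreated or LTβR library of this class.

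Levels also differed between clusters of the same class. Among macrophage- or monocyte-like clusters of the untreated library, the summed member level was 14922 CPM in the cluster led by Inhba, Nos2 and Il1a and 14051 in a cluster with Cxcl10 among its leading genes. It was 7955 in the cluster led by C1qa, 5647 in the cluster led by Retnla and 5022 in the cluster led by Ace. Among T-like clusters, the cluster led by Foxp3, the regulatory T cell factor, had 6733, 6104, 8106 and 6495, and the cluster led by Gzmf and Cd8a 3338, 3563, 4762 and 3661. These clusters were made without the members, and the levels are descriptions of cells of 1 library at a time.

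Source transcripts for type I interferon were nearly absent in these sorted CD45+ cells at this late time. The paper reports interferon-β protein in tumors within hours of ADU-S100, a time that was not sampled here. Ifnb1, the interferon-β gene, counted 9, 1, 21 and 15 UMIs in 5, 1, 5 and 3 cells of the 4 libraries, and 42 of these UMIs lay in macrophage- or monocyte-like cells. Of the 13 interferon-α genes, Ifna4 had 6 UMIs in the LTβR library, Ifna5 had 1 in the combination library, and the rest had none. Ifng, the interferon-γ gene, counted 3941, 2865, 2410 and 2905 UMIs, of which 85.5% lay in T-like cells.

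In each comparison below, a log2 ratio was taken after adding 10 CPM to both levels, for members with at least 50 UMIs in 1 of both libraries and classes with at least 50 cells in both. A member is called past the fold when this ratio was 0.5 or more in size, and the share of all genes past the same fold stands beside each count. The 3 comparisons with the untreated library share that library.

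In macrophage- or monocyte-like cells most members were slightly lower in every treated library. The cells numbered 2989, 1431, 2820 and 1747. The median member log2 ratio over untreated was -0.08 (bounds -0.18 to 0.01) for STING, -0.14 (-0.21 to -0.06) for LTβR and -0.22 (-0.31 to -0.12) for the combination, where all genes had medians of 0.01, 0.01 and 0.03. In the LTβR library 34 of 37 members were below 0 and 1 was past the fold downward, against 0.885% of all genes. In the combination library 34 of 37 were below 0 and 2 were past the fold downward, against 1.57% of all genes. These 2 were Rsad2 and Ifit1bl1.

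Ifit1bl1, a paralog of Ifit1, showed the steepest decline, from 40.2 to 27.6, 23.3 and 15.4 CPM, with a log2 ratio of -0.98 (-1.16 to -0.80) for the combination. Rsad2 in the combination library had a ratio of -0.55 (-0.62 to -0.48), and Dhx58 came next at -0.47. The highest ratios there were 0.02 for Ifih1, 0.02 for Parp9 and 0.01 for Eif2ak2. For STING the lowest were Isg20 (-0.42), Ifit1bl1 (-0.42) and Ifi27l2a (-0.27), and the highest Samd9l (0.06), Parp14 (0.06) and Ifi44 (0.05). For LTβR the lowest were Ifit1bl1 (-0.59), Rtp4 (-0.40) and Irf7 (-0.40), and the highest Ifi44 (0.16), Usp18 (0.12) and Ifi27l2a (0.08).

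The combination had a median of -0.13 over STING, with Ifit1bl1 (-0.56), Dhx58 (-0.42) and Ifi44 (-0.40) lowest and Ifit3b (0.21), Slfn5 (0.10) and Isg20 (0.10) highest. Over LTβR the median was -0.07, with Ifi44 (-0.50), Rsad2 (-0.42) and Ifit1bl1 (-0.39) lowest and Ifit3 (0.19), Ifit3b (0.14) and Zbp1 (0.11) highest. Clusters of the macrophage- or monocyte-like class moved both ways. The mean over clusters moved the combination median to -0.05 and the LTβR median to 0.02. The clusters changed in size, since the Inhba, Nos2 and Il1a cluster had 1020, 483, 768 and 299 cells and the Retnla cluster 78, 37, 242 and 294. In the first of these clusters the median for the combination over untreated was -0.04, in the Retnla cluster it was -0.60 and in the cluster led by Psd3 -0.53. It was 0.45 in the cluster led by Gm9733, 0.33 in the cluster led by Ace and 0.31 in the cluster led by Hspa1b.

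**Figure D2:**
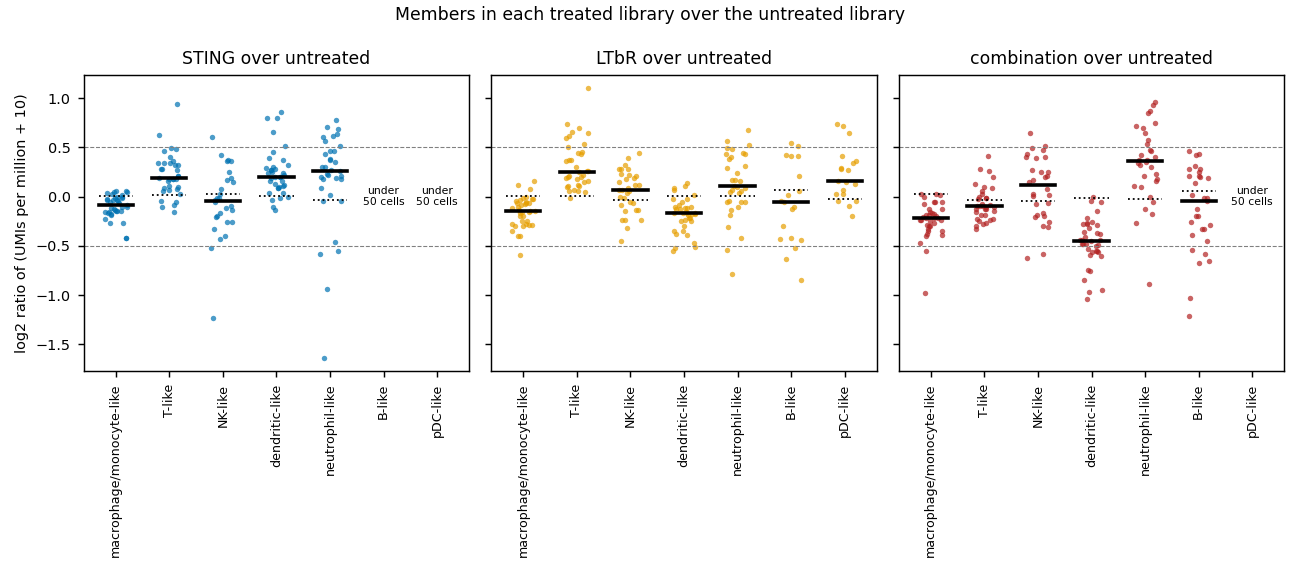
Log2 ratio of each member (points) in the STING, LTβR and combination libraries over the untreated library, by cell class, with the member median (solid bar) and the median of all genes (dotted bar); dashed lines mark the fold of 0.5. Dendritic-like members lie mostly above 0 under STING and all lie below 0 under the combination, where their median is -0.45.

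Dendritic-like cells, 636, 199, 434 and 222 in number, showed the largest decline of members under the combination among the 6 classes with a ratio. Isg15 had levels of 1109 (1085 to 1134), 1271 (1226 to 1317), 795 (770 to 821) and 612 (582 to 643) CPM. Irf7 had 307, 387, 206 and 154. The STING library was the highest and the combination library the lowest for both, and their intervals did not overlap with those of the untreated library.

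Ifit3 was at 108 (101 to 116), 176 (160 to 194), 82.4 (74.3 to 91.1) and 78.7 (68.3 to 90.4) CPM in dendritic-like cells. Rsad2 was at 88.0, 168, 79.6 and 62.1, and Ifi27l2a at 1298, 1183, 1148 and 926. Of these 5 members, only Ifi27l2a was lower in the STING library than untreated, with a log2 ratio of -0.13, while Rsad2 had 0.86 (0.63 to 1.10). In the STING library 10 of the 199 dendritic-like cells held 68.0% of the Rsad2 UMIs and 64.0% of the Ifit3 UMIs. These shares were 34.8% and 23.7% in 10 of the 636 untreated cells and 42.1% and 35.4% in 10 of the 434 LTβR cells. In 10 of the 222 combination cells they were 63.1% and 59.6%. A share held by 10 cells also depends on how many cells a library has.

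Under STING alone the dendritic-like median was 0.20 (0.02 to 0.42), with 32 of 37 members above 0 and 5 past the fold upward, against 1.66% of all genes. All 5 were antiviral effectors. The highest were Rsad2, Cmpk2 (0.80) and Ifit3b (0.79), and the lowest Ifi27l2a, Ifi213 (-0.10) and Parp9 (-0.03). When dendritic-like cells were instead chosen by a marker gate on each cell, the median under STING was -0.19, so the direction depended on how the cells were chosen. The cause was not tested.

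Under LTβR alone the dendritic-like median was -0.17 (-0.38 to 0.04), and 3 members were past the fold downward, against 1.23% of all genes. They were Irf7 (-0.55), Ifit1bl1 (-0.52) and Zbp1 (-0.51), a sensor of Z-form nucleic acid. Ifi44 (0.14), Cmpk2 (0.10) and Eif2ak2 (0.08) were highest.

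Under the combination all 37 members were below the untreated library, with a median of -0.45 (-0.72 to -0.16) where all genes had -0.02. Past the fold downward were 13 members, against 2.98% of all genes. By role these were 5 of 16 antiviral effectors, 2 of 3 members of the ISG15 system, 3 of 4 PYHIN genes, 1 of 5 transcription and ADP-ribosylation members, 2 of the 5 remaining members and none of the 4 sensors and kinases. The lowest were Isg20 (-1.04), Ifi213 (-0.97) and Irf7 (-0.95), and the highest Ifit3b (just below 0), Eif2ak2 (-0.04) and Parp9 (-0.05). Isg20 had levels of 117, 144, 87.2 and 51.6 CPM.

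Set against STING alone, the combination had a dendritic-like median of -0.68 (-0.98 to -0.36) and 29 of 37 members past the fold downward, against 5.52% of all genes. Of the 16 antiviral effectors, 15 were among them. Isg20 (-1.32), Rsad2 (-1.31) and Irf7 (-1.27) were lowest, and Parp9 (-0.02), Eif2ak2 (-0.08) and Ifi27l2a (-0.35) highest. Over LTβR alone the median was -0.31 (-0.56 to 0.01), with 6 members past the fold downward against 1.84% of all genes. Ifi44 (-0.69), Isg20 (-0.66) and Ifi213 (-0.60) were lowest, and Parp9 (0.11), Zbp1 (0.03) and Parp14 (0.03) highest.

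Both dendritic-like clusters showed the decline. In the cluster with Plet1 and Cd209a among its leading genes the median was 0.24 for STING, -0.14 for LTβR and -0.41 for the combination over untreated. In the cluster led by Fscn1 and Ccr7, genes of migratory mature dendritic cells, it was 0.04, -0.47 and -0.79. Marker gates on each cell, added after the class values had been seen, gave -0.61 for the combination in Cd209a dendritic-like cells, with 19 of 33 members past the fold downward against 8.36% of all genes. In mature dendritic-like cells the gate gave -0.83 with 24 of 32 members past the fold, against 13.3% of all genes. There LTβR alone gave -0.52 with 17 of 32, against 9.47%. A gate for cDC1 cells left 44 and 38 cells in the STING and combination libraries, too few for a ratio, and LTβR over untreated gave a median of -0.11 there (84 and 167 cells). The 14 macrophage markers summed to 1315, 1503, 1446 and 1538 CPM in dendritic-like cells, with none at 0, and their part in the result was not tested.

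T-like cells, 1690, 1218, 1790 and 1778 in number, carried more member RNA with either agonist alone than untreated and not with both. The summed level was 3816, 4075, 5288 and 3609 CPM. Ifi27l2a, at the T-like levels given above, was the largest part of each sum. Isg15 was at 159 (151 to 167), 204 (193 to 214), 234 (224 to 244) and 165 (158 to 173). Rsad2 was at 17.1, 41.8, 48.1 and 26.1, Ifit3 at 45.2, 67.8, 54.4 and 46.2, and Irf7 at 73.9, 91.0, 80.2 and 58.4. For Isg15 the untreated and combination intervals overlapped, and those of both single-agonist libraries lay above them.

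The T-like median was 0.19 (0.00 to 0.40) for STING, with 30 of 35 members above 0 and 2 past the fold upward, against 1.6% of all genes. These were Rsad2 (0.94) and Ifit1 (0.63), followed by Ifit3 (0.49), and the lowest were Trim30a (-0.16), Ifi27l2a (-0.11) and Stat2 (-0.08). For LTβR the median was 0.25 (0.04 to 0.49), with 35 of 36 above 0 and 9 past the fold upward, against 1.85% of all genes. Rsad2 (1.10), Ifit1 (0.73) and Slfn5 (0.69) were highest, and Ifi213 (-0.01), Parp14 (0.04) and Xaf1 (0.06) lowest. For the combination the median was -0.10 (-0.29 to 0.10) and none of 35 members was past the fold downward, against 1.82% of all genes. Rsad2 (0.42), Ifit1 (0.28) and Isg20 (0.26) were highest, and Ifi213 (-0.33), Irf7 (-0.29) and Oasl2 (-0.28) lowest.

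Relative to the single agonists, T-like members were lower in the combination library. Over STING the median was -0.28, with 6 of 35 past the fold downward against 1.15% of all genes, Oasl2 (-0.68), Ifit2 (-0.57) and Irf7 (-0.56) lowest, and Isg20 (0.10), Ifi27l2a (0.04) and Bst2 (-0.04) highest. Over LTβR it was -0.34 (-0.56 to -0.14), with 35 of 36 below 0 and 8 past the fold downward, against 1.43% of all genes. Here Oasl2 (-0.89), Slfn5 (-0.80), a gene of the Schlafen family of growth regulators, and Cmpk2 (-0.74) were lowest, and Usp18 (0.02), Isg20 (-0.11) and Xaf1 (-0.14) highest. Dissociation and stress genes such as Fos and Jun summed to 1543, 2797, 2029 and 2126 CPM in T-like cells, highest in the STING library, and their part in the result was not tested.

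The T-like pattern differed between cells gated by Cd4 and by Cd8 RNA, a split added after the class values had been seen. The CD4 gate took T-like cells with a Cd4 UMI and no Cd8a or Cd8b1 UMI and held 302, 312, 513 and 389 cells, and the CD8 gate took the reverse and held 919, 548, 707 and 916. In CD4 T-like cells the summed member level was 5637, 5525, 6820 and 3723 CPM. In CD8 T-like cells it was 3367, 3604, 4484 and 3640.

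In CD4 T-like cells Isg15 was at 245 (219 to 272), 277 (250 to 305), 324 (302 to 348) and 140 (125 to 156) CPM. Ifit3 was at 67.4 (54.3 to 82.6), 112 (95.4 to 130), 57.7 (48.5 to 68.2) and 21.1, and Irf7 at 99.6, 135, 98.5 and 48.4. The combination library was the lowest for all 3, with intervals apart from the other libraries. Rsad2 was at 56.9 and 60.6 in the STING and LTβR libraries and at 20.2 in the combination library, where the untreated and combination intervals overlapped.

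In CD8 T-like cells Isg15 was at 144 (135 to 153), 174 (162 to 187), 176 (164 to 188) and 175 (165 to 185) CPM, so the combination library was level with the single agonists. Ifit3 was between 42.9 in the untreated and 60.3 in the combination library, Irf7 at 63.0, 79.8, 65.8 and 57.1, and Rsad2 at 16.4, 33.4, 46.6 and 29.4. Ifi27l2a was at 1252, 1264, 2030 and 1345, against 2643, 2026, 3108 and 1803 in CD4 T-like cells.

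**Figure D3:**
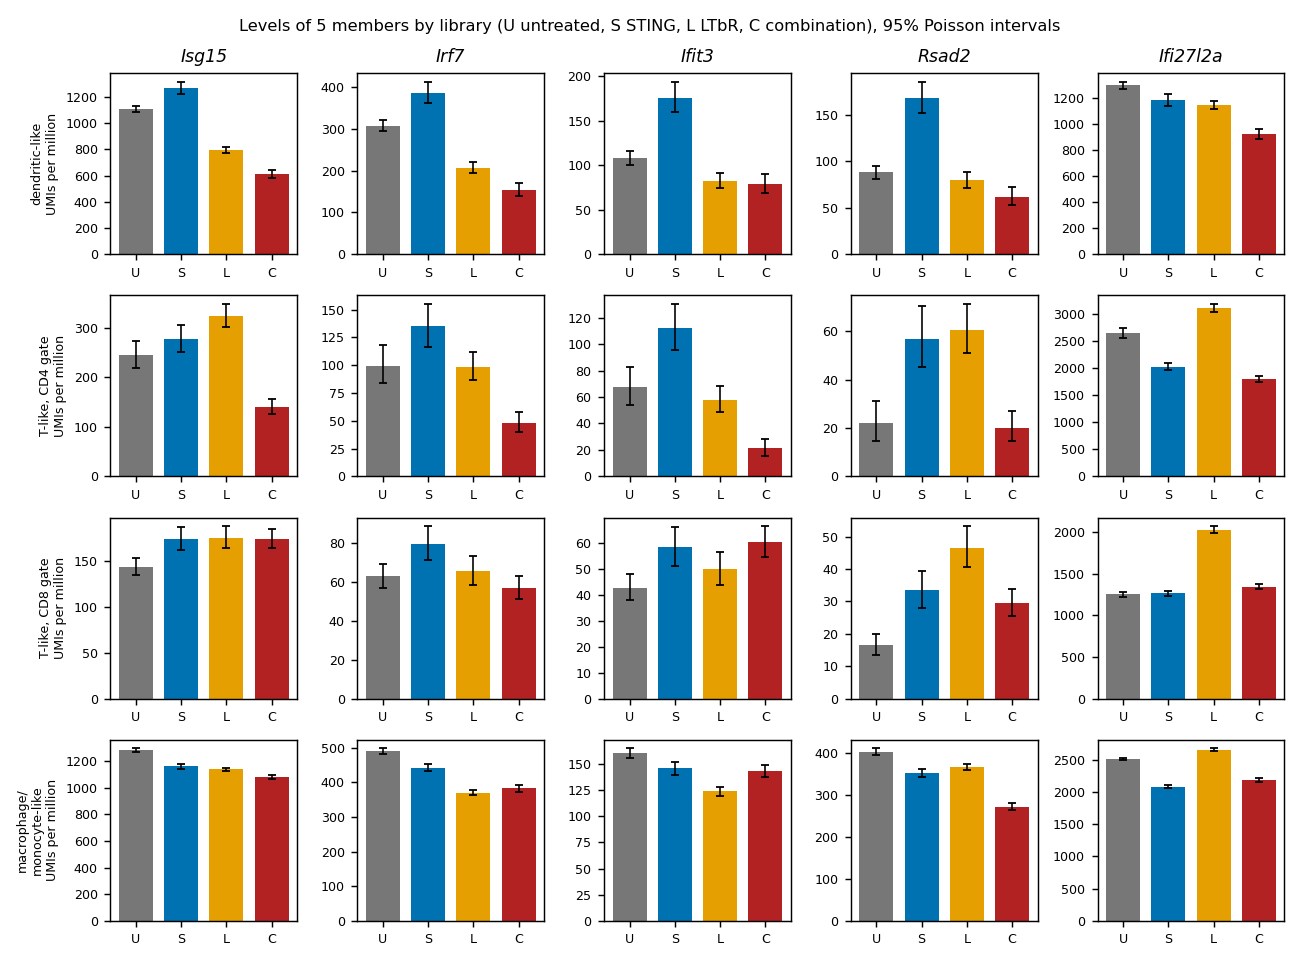
Levels of Isg15, Irf7, Ifit3, Rsad2 and Ifi27l2a (bars, CPM on a linear axis from 0) in the 4 libraries, for dendritic-like, CD4 T-like, CD8 T-like and macrophage- or monocyte-like cells, with exact Poisson 95% intervals. In dendritic-like cells Isg15 is at 1271 CPM in the STING library and 612 in the combination library, and in CD8 T-like cells at 174 and 175.

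Across members, the combination over untreated had a median of -0.59 (-0.99 to -0.18) in CD4 T-like cells, with all 27 members that passed the minimum below 0 and 18 past the fold downward, against 7.61% of all genes. Ifit3 (-1.31), Ifi213 (-1.11) and Irf7 (-0.91) were lowest. The combination over STING gave -0.77 with 24 of 31 past the fold, against 7.42% of all genes, and over LTβR -0.83 with 29 of 33, against 3.62%. In CD8 T-like cells the combination over untreated gave 0.10 (-0.13 to 0.37) with 2 of 33 members past the fold upward, against 0.695% of all genes, which were Rsad2 (0.58) and Ifit1 (0.52). The combination over LTβR gave -0.06 with 4 of 34 past the fold downward, against 2.56% of all genes.

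Single agonists moved both gates less apart. STING over untreated gave a median of 0.19 in CD4 T-like cells with 6 of 31 members past the fold upward, against 5.07% of all genes, and 0.16 in CD8 T-like cells with 1 of 33, against 1.34%. LTβR over untreated gave 0.21 with 9 of 33 in CD4, against 3.06%, and 0.17 with 2 of 34 in CD8, against 1.54%. Rsad2 was the highest member in all 4 of these comparisons, at 1.07 and 1.14 in CD4 and 0.71 and 1.10 in CD8 T-like cells. Few cells carried it, since 10 cells held 72.6% of the Rsad2 UMIs of CD4 T-like cells in the STING library, where 27 of 312 cells had a UMI against 22 of 302 untreated. In CD8 T-like cells of the LTβR library 10 cells held 58.8%.

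The decline was seen in CD4 T-like cells without a Foxp3 UMI, where the combination over untreated had a median of -0.80 and over LTβR of -1.07. In CD4 T-like cells with a Foxp3 UMI these medians were 0.02 over 13 members (82 and 58 cells) and -0.27 over 21 members (82 and 134 cells). Without a Foxp3 UMI they covered 24 members (307 and 244 cells) and 32 members (307 and 379 cells). The sets of members thus differed in size, and the difference between these cells was not tested. A Foxp3 UMI was found in 19.2%, 16.0%, 26.1% and 21.1% of CD4 T-like cells and in at most 1.56% of CD8 T-like cells, at median depths of 4026 to 4760 and 5778 to 6798 UMIs, and cells without a UMI may still express the gene. By cluster, the T-like cluster led by S1pr1 and Tcf7, genes of recirculating and less differentiated T cells, had a median of -0.51 for the combination over untreated, and the cluster led by Foxp3 had -0.12. The S1pr1 cluster was mixed, with 108, 138, 196 and 106 cells of the CD4 gate and 142, 115, 119 and 203 of the CD8 gate. Its decline is therefore not a value of CD4 T-like cells alone. Lower values were also found where Cd4 did not lead, with -0.56 in the T-like cluster led by Il17a and Trdv4 and -0.64 in an unnamed cluster led by Klra7. In the Klra7 cluster all 25 members that passed the minimum lay below 0, where all genes had a median of -0.04. Its marker score was highest for T cells, but more of its leading genes marked another class. The T-like values therefore leave it out.

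The clusters that made up the CD4 gate differed in share between libraries. Of its cells, 35.8%, 44.2%, 38.2% and 27.2% lay in the cluster led by S1pr1 and Tcf7, and 25.2%, 26.0%, 24.0% and 40.1% in the cluster led by Il13, a type 2 cytokine gene. The Il13 cluster itself had a median of -0.27 (-0.89 to 0.36) over 19 members for the combination over untreated. Of these members 5 lay above 0 and 14 below it, and all genes had a median of -0.02. When the members were kept for clustering, a cluster led by Lef1, a factor of naive T cells, held 5, 0, 9 and 31 cells of the gate. Without that cluster, a setting added after the values had been seen, the median for the combination over untreated was -0.62. The part of the other shares in the result was not tested. The 14 macrophage markers summed to 439, 209, 221 and 182 CPM in CD4 T-like cells, highest in the untreated library, and between 0 and 1 of them were at 0. The stress genes summed to 2091, 3730, 2577 and 2903. The part of either in the result was not tested.

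The design crosses both agonists, so the log2 ratio for adding STING to LTβR (combination over LTβR) can be set against that for STING without LTβR (STING over untreated), 2 ratios that share no library. In T-like cells the difference between them had a median of -0.57 (-0.98 to -0.14) over members with at least 50 UMIs in any library, and it was below 0 for 36 of 36 members, as it was for 61.1% of all genes. In dendritic-like cells the median was -0.49 (-1.03 to 0.01), below 0 for 36 of 37 members and for 54.6% of all genes. The marker gates gave -0.28 (-1.09 to 0.65) in Cd209a dendritic-like cells, below 0 for 25 of 33 members. In mature dendritic-like cells the gate gave -0.23 (-1.52 to 0.99), below 0 for 20 of 32 members. In macrophage- or monocyte-like cells the median difference was 0.03, below 0 for 15 of 37 members and for 45.7% of all genes, and in NK-like cells 0.04. CD4 T-like cells gave -1.09 (-1.92 to -0.20), below 0 for 34 of 34 members, and CD8 T-like cells -0.20 (-0.72 to 0.33), below 0 for 30 of 34. The share of all genes below 0 was not computed for the gated cells, so their counts have no background beside them. The bounds are wide because each difference joins the counting error of 4 libraries, and the difference was not tested.

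**Figure D4:**
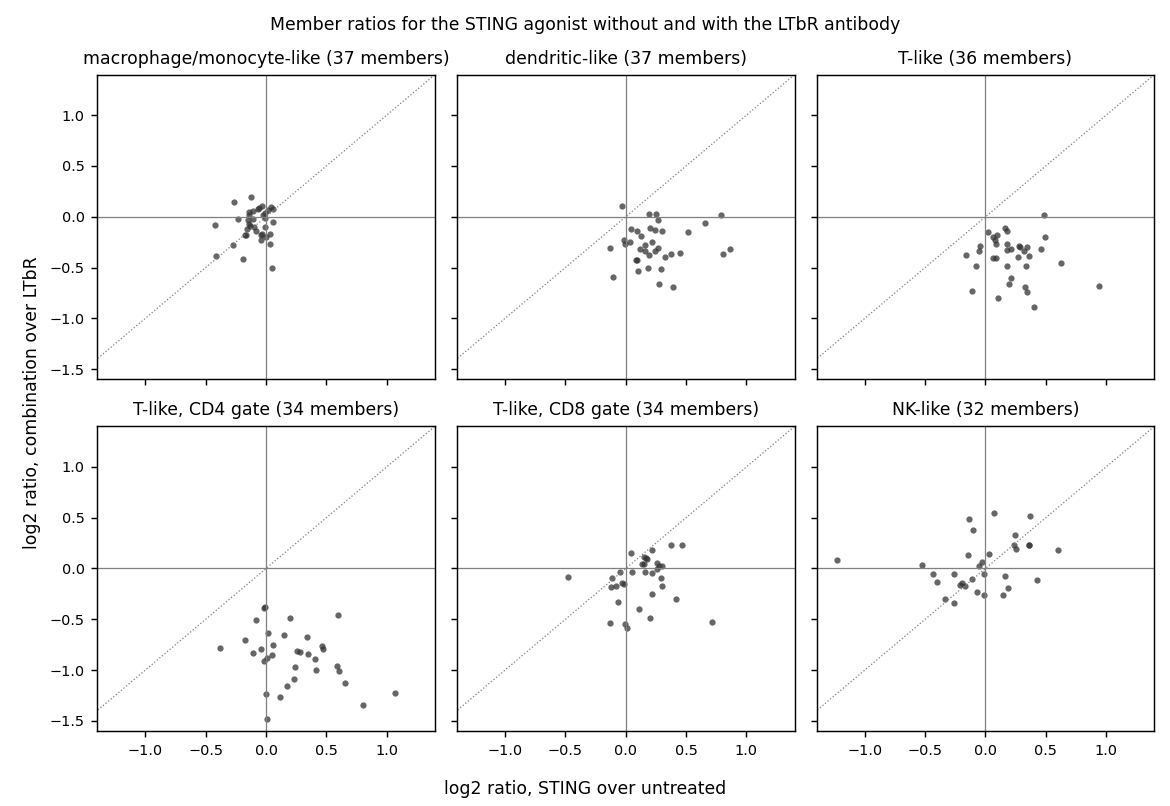
Each member's log2 ratio for STING over untreated (x axis) against its ratio for the combination over LTβR (y axis) in 6 groups of cells, with the line where both are equal. All T-like and CD4 T-like members and 36 of 37 dendritic-like members lie below the line, with a median difference of -1.09 in CD4 T-like cells, and macrophage- or monocyte-like members lie on both sides of it.

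Counting cells rather than summed RNA gave the same order of libraries in dendritic-like cells. Each cell was thinned to 1000 UMIs, cells with fewer were left out, and cells with at least 10 member UMIs were counted. In the 5 classes plotted, between 1 and 74 cells per class and library were left out, and the summed levels above are the unthinned values. In dendritic-like cells 28.5% (25.1 to 32.2), 29.9% (23.7 to 36.9), 19.2% (15.6 to 23.3) and 14.5% (10.1 to 19.8) passed. Dendritic-like cells with no member UMI were 4.10%, 5.58%, 6.57% and 18.1%, so the combination library also had the most cells without any. Between 24 and 124 dendritic-like cells per library had 8 to 12 member UMIs, near the limit, so the count marks a range and not a cell type.

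In macrophage- or monocyte-like cells 49.2%, 44.6%, 43.9% and 35.7% had at least 10 member UMIs, in neutrophil-like cells 29.6%, 45.6%, 44.6% and 48.3%, and in NK-like cells 3.24%, 2.91%, 3.94% and 2.53%. T-like cells had 10.3%, 10.6%, 16.6% and 8.18%. In CD4 T-like cells the shares were 15.7% (11.7 to 20.3), 16.1% (12.2 to 20.7), 24.0% and 9.87% (7.08 to 13.3), and in CD8 T-like cells 7.37%, 8.26%, 12.2% and 8.79%. The CD4 combination interval lay below the LTβR share and overlapped with the untreated and STING intervals.

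**Figure D5:**
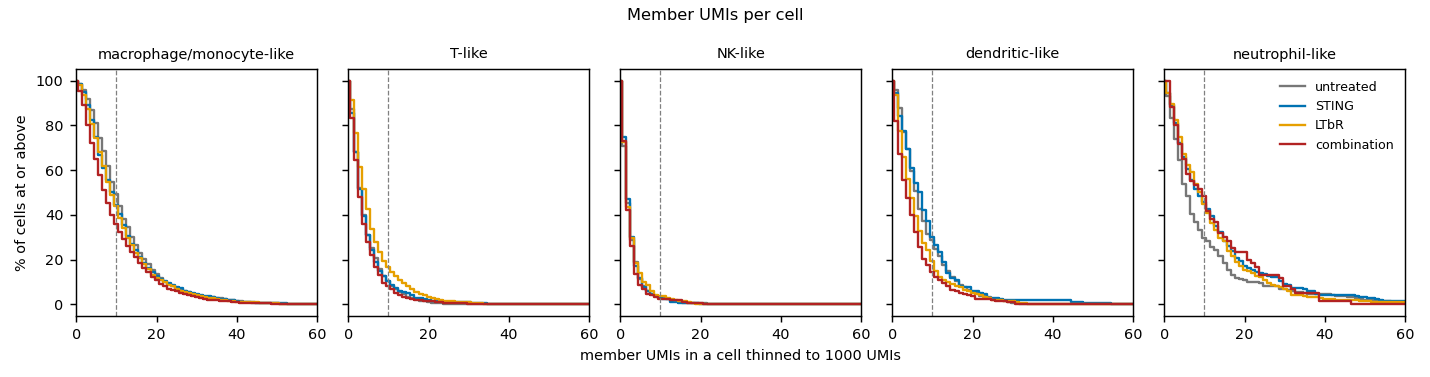
Percentage of cells (y axis) with at least the given number of member UMIs (x axis) after thinning each cell to 1000 UMIs, as 1 curve per library in 5 classes, with a dashed line at 10 UMIs. At that line the dendritic-like curves stand at 29.9% in the STING library and 14.5% in the combination library, while macrophage- or monocyte-like curves lie between 35.7% and 49.2%.

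The members occurred together in macrophage- or monocyte-like, T-like, NK-like, dendritic-like and neutrophil-like cells of every library. T-like cells of the untreated library with a UMI of Ifit1, Ifit3 or Ifit3b after thinning had a mean of 8.71 UMIs of the other 34 members, against 3.57 in T-like cells without one. In the combination library these means were 9.51 and 3.18. Such cells made up 7.02%, 9.14%, 9.62% and 6.50% of T-like cells. In NK-like cells they were 2.43%, 4.36%, 2.25% and 3.04%, and their mean over the other members in the untreated library was 9.33 against 1.94. In dendritic-like cells they were 11.2%, 11.2%, 9.62% and 8.60%. Plasmacytoid dendritic-like cells had the fewest in the untreated and STING libraries of the dendritic and myeloid classes, at 2.73% and 0 of 35 cells. The 3 untreated cells with such a UMI there had a mean of 6.33 over the other members against 7.80 in the rest, the 1 LTβR cell had 8 against 8.91, and the 1 untreated B- or plasma-like cell had 0 against 2.48.

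NK-like cells, 505, 276, 732 and 413 in number, showed small member changes. Medians over untreated were -0.04 for STING, 0.07 for LTβR and 0.11 for the combination. For STING, 1 member was past the fold upward, against 3.62% of all genes, and 2 downward, against 3.41%. These were Ifit3 (0.60), with Dtx3l (0.43) and Slfn5 (0.37) next, and Ifi27l2a (-1.23) and Parp9 (-0.52), with Trim30a (-0.43) next. Ifi27l2a in NK-like cells was 25.7 (18.4 to 34.9) CPM in the STING library and 73.9 (63.6 to 85.3) untreated. The remaining levels were 18.1, 32.6, 22.5 and 26.8 for Ifit3, 63.8, 84.6, 60.5 and 72.7 for Irf7, and 28.9, 22.5, 31.2 and 22.5 for Rsad2.

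For LTβR in NK-like cells the highest were Ifi203 (0.44), Dtx3l (0.39) and Ifit1 (0.32), and the lowest Ifit2 (-0.45), Ifih1 (-0.32) and Oas3 (-0.24). For the combination 2 of 30 were past the fold upward, against 1.57% of all genes, and 2 downward, against 4.14%. Ifit1 (0.64), Bst2 (0.52) and Oas1a (0.50) were highest and Ifih1 (-0.63), Ifit2 (-0.59) and Ifi213 (-0.31) lowest. Over STING the combination was highest for Ifi27l2a (1.26), Parp9 (0.60) and Oas1a (0.60) and lowest for Ifit3 (-0.21), Irf7 (-0.19) and Stat2 (-0.18). Over LTβR it was highest for Isg20 (0.55), Slfn5 (0.51) and Isg15 (0.49) and lowest for Rsad2 (-0.34), Ifih1 (-0.30) and Stat2 (-0.26).

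Neutrophil-like cells, 231, 305, 382 and 69 in number with about 2000 UMIs per cell (medians 2232, 2423, 2172 and 1979), had wide intervals. Member medians over untreated were 0.26 (-0.17 to 0.74) for STING, 0.10 (-0.30 to 0.53) for LTβR and 0.36 (-0.31 to 1.00) for the combination. For STING 8 of 34 members were past the fold upward and 4 downward, where all genes gave 6.39% and 10.1%. For LTβR 3 were past it upward and 2 downward, where all genes gave 8.86% and 6.35%. For the combination 10 of 32 were past it upward and 1 downward, where all genes gave 9.24% and 12.5%. The macrophage markers summed to 3131, 2370, 3714 and 9362 CPM in neutrophil-like cells, with none at 0 and Lyz2 at 4711 in the combination library, and their part in the combination values was not tested.

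By member, STING over untreated in neutrophil-like cells was highest for Oas2 (0.78), Rtp4 (0.70) and Xaf1 (0.69), and lowest for Ifi213 (-1.64), Ifi209 (-0.94) and Ifit2 (-0.58). Ifi213 counted 74, 24, 72 and 11 UMIs. LTβR was highest for Ifit1 (0.68), Usp18 (0.57) and Oas1a (0.53) and lowest for Ifi213 (-0.79), Irf7 (-0.54) and Ifit2 (-0.42). The combination was highest for Parp14 (0.96), Ifi27l2a (0.93) and Xaf1 (0.86) and lowest for Ifi213 (-0.88), Parp9 (-0.27) and Cmpk2 (-0.18). Ifi27l2a was at 1270, 1462, 1773 and 2429 CPM. Over STING the combination was highest for Ifi209 (0.94), Ifi203 (0.86) and Ifi204 (0.80) and lowest for Oas2 (-0.48), Cmpk2 (-0.35) and Parp9 (-0.29). Over LTβR it was highest for Irf7 (1.02), Parp14 (0.91) and Ifit3b (0.78) and lowest for Usp18 (-0.33), Parp9 (-0.31) and Ifit1 (-0.30).

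B- or plasma-like cells numbered 59, 15, 177 and 538, so the STING library gave no ratio. Their summed member level was 2836, 2484, 2814 and 2518 CPM. Isg15 was at 162 (125 to 207), 50.4 (13.7 to 129), 148 (127 to 171) and 180 (167 to 194), Irf7 at 48.9, 50.4, 68.4 and 71.0, and Rsad2 at 100 (71.4 to 137), 25.2, 51.5 (39.4 to 66.2) and 43.9 (37.4 to 51.2). Rsad2 was thus lower in the LTβR and combination libraries than untreated, with intervals apart. Ifit3 counted 23.2, 12.6, 13.5 and 28.5 CPM.

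Medians over untreated in B- or plasma-like cells were -0.06 for LTβR and -0.05 for the combination, where 6 of 31 members were past the fold downward against 6.33% of all genes. Oasl1 (-1.21), Rsad2 (-1.03) and Zbp1 (-0.67) were lowest and Irf7 (0.46), Oas3 (0.43) and Ifi204 (0.42) highest. For LTβR, Rsad2 (-0.84), Zbp1 (-0.63) and Slfn5 (-0.52) were lowest and Ifi27l2a (0.55), Eif2ak2 (0.51) and Oasl2 (0.42) highest. The combination over LTβR had a median of 0.02, with Ifit3 (0.71), Ifit2 (0.56) and Slfn5 (0.51) highest and Ifi27l2a (-0.67), Dtx3l (-0.40) and Isg20 (-0.34) lowest.

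Plasmacytoid dendritic-like cells numbered 110, 35, 69 and 28, which allowed LTβR over untreated alone. The median was 0.16 over 19 members, with 3 past the fold upward against 2.39% of all genes. Isg15 (0.73), Ifi44 (0.72) and Rsad2 (0.64) were these, and Dtx3l (-0.20), Ifi209 (-0.10) and Slfn5 (-0.05) were lowest. Isg15 was at 204 (178 to 232), 303 (251 to 364), 346 (300 to 396) and 290 (233 to 357) CPM, and Rsad2 at 47.3, 25.9, 79.4 and 26.1.

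Genes upstream of the members had smaller ratios in dendritic-like cells of the combination library. Of 12 interferon signalling genes, none was past the fold downward there, against 2.98% of all genes, and the median was -0.03. Ifnar1 had a log2 ratio of 0.14, Ifnar2 of -0.36 and Irf9 of -0.27. Under STING alone 3 of the 12 were past the fold upward, against 1.66% of all genes. They were Socs1 (0.79), a feedback inhibitor of cytokine signalling, Tmem173 (0.66), which encodes STING, and Irf1 (0.64).

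Interferon-γ-induced comparator genes were an 11-gene list with Cxcl9, Cxcl10 and guanylate-binding proteins. Their order of libraries differed from that of the members in dendritic-like and macrophage- or monocyte-like cells. In dendritic-like cells their median was 0.46 for STING with 5 of 10 past the fold upward against 1.66% of all genes, -0.34 for LTβR with 3 of 10 past it downward against 1.23%, and -0.10 for the combination. Over LTβR the combination gave 0.28 with 3 of 9 past the fold upward, against 0.974% of all genes, where the member median was -0.31. Cxcl9, a T cell attractant, was at 254, 339, 130 and 313 CPM, while Cxcl10, which responds to both interferon types, was at 441, 856, 404 and 248.

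In macrophage- or monocyte-like cells the comparator median was 0.40 for STING with 2 of 10 past the fold upward, against 0.351% of all genes. It was -0.42 for LTβR with 4 of 10 past it downward, against 0.885% of all genes, and for the combination over LTβR it was 0.44 with 4 of 10 past it upward, against 0.832% of all genes. Cxcl9 there was at 338, 554, 238 and 533 CPM and Gbp2 at 611, 866, 323 and 550. The members in the same cells had medians of -0.08, -0.14 and -0.07 in these 3 comparisons. In T-like cells the order of the treated libraries was that of the members. Comparator medians over untreated there were 0.38 for STING, 0.39 for LTβR and 0.09 for the combination. NK-like cells also kept the member order, with 0.01, 0.04 and 0.20.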

How the data were processed

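Live CD45+ cells from pooled tumors were profiled with 10x Genomics 5′ v2 chemistry, 1 library per group. The authors counted UMIs with Cell Ranger 7.1.0 against mm10 and deposited raw UMI counts per gene and barcode for the 4 libraries in 1 matrix. Libraries held 60770280, 32529174, 56877525 and 42710099 UMIs (untreated, STING, LTβR, combination). Which of the study's single-cell experiments they come from is not stated.

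After the study's limits, barcodes were kept with 300 to 5000 genes and a mitochondrial share of no more than 6%. Doublets were kept, and removal at a Scrublet score of 0.2 served as an alternative. Counts were scaled to 10000 per cell, log-transformed, reduced with scanpy 1.11.5 (2000 variable genes, 30 components, 20 neighbors) and clustered by Leiden at resolution 1. V(D)J segment genes (635) and the members with the other interferon lists (79 genes) were left out. To be named, a cluster had to show 3 or more of its markers and could not have more leading markers of another class than of its own. A cluster with under 1/3 of the median UMI count needed a leading marker of its own. The rules were set after the clusters were seen, and the names may differ from those of the study. UMIs were summed per class and library and scaled to CPM, with exact Poisson 95% intervals (exact binomial for shares). Ratio bounds pair opposite interval ends and are wider than 95% intervals, and a median's bounds are medians of these. The computation was tested on simulated counts. The members and gene lists were chosen with earlier results of these data known. Printed by rule were Isg15, Ifit3, Irf7, Rsad2 and Ifi27l2a in each class with 50 UMIs in 1 library, and the 3 highest and 3 lowest members per class and comparison. Other members named were chosen after their values were seen. Alternatives covered the pseudocount, the count minimum, size factors, a gate on each cell, clustering with the members, equal weight per cell or cluster, doublets and shared barcodes. Some items of the genotype and of the comparison lists are not reported here.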

Additional observations from a re-analysis of the deposited data

Results flagged for a closer look

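The following differences between groups of cells or between libraries under the same contrast were picked out for a closer look. None of them was tested, because each group had 1 library. The 2 by 2 difference of members, the log2 ratio of the combination to LTβR minus that of STING to untreated, had a median of -0.57 in T-like cells, where all 36 members lay below 0. It was -0.49 in dendritic-like cells, where 36 of 37 members lay below 0, and -1.09 in CD4 T-like cells, where 34 of 34 did. In gated Cd209a and mature dendritic-like cells it was -0.28 and -0.23, below 0 for 25 of 33 and 20 of 32 members. Of all genes, 61.1% lay below 0 in T-like cells and 54.6% in dendritic-like cells. This share was not computed for the gated cells, CD4 T-like cells included.

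In the combination over untreated, the median of CD4 T-like cells lay below that of CD8 T-like cells by a difference of -0.69. Both gates come from the same 2 libraries. CD4 and CD8 T-like cells had medians of 4760 and 6272 UMIs per cell in the combination library.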

How the results depend on the processing

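No paired analysis was possible because each group had 1 library, and for the same reason no library could be left out. Of 524 recomputed member medians (50 results), 517 stayed within the interval reported, as did 86 of 86 recomputed 2 by 2 differences (9 results). The 2 by 2 bounds join the counting error of 4 libraries, so a difference can move far and still lie within them. Among medians whose interval had a single sign, the sign turned in 2. Where an interval held both signs, a change of sign within it was not counted. The macrophage- or monocyte-like median for LTβR over untreated became 0.023 as a mean over clusters, and the dendritic-like median for STING over untreated became -0.19 with a gate on each cell. That gate also moved the dendritic-like LTβR median to -0.45. In macrophage- or monocyte-like cells, equal weight per cell moved the combination median to -0.31 over untreated and -0.30 over STING, and equal weight per cluster moved them to -0.045 and -0.041. The cause was not tested.

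The ratio of the share of cells with many member UMIs to the untreated share stayed within its interval in 65 of 72 recomputations (18 results). With a limit of 20 UMIs it moved from 0.725 to 0.825 for macrophage- or monocyte-like cells of the combination library, from 1.02, 1.60 and 0.793 to 1.92, 3.02 and 1.21 for T-like cells of the STING, LTβR and combination libraries, and from 1.22 to 0.347 for NK-like cells of the LTβR library. For the T-like combination and NK-like LTβR ratios this turned the direction. Without Bst2, Ifi27l2a and Ifi203 it was 0.817 for the combination in macrophage- or monocyte-like cells and 1.78 for STING in T-like cells.

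Counts past the fold depend on the pseudocount, the fold, the gate, the clustering and, for classes with few members past it, the count minimum. With 50 CPM added, members past the fold fell from 29 to 15 for dendritic-like cells of the combination over STING, from 13 to 5 over untreated, from 9 to 2 for T-like cells of LTβR over untreated and from 18 to 6 for CD4 T-like cells of the combination over untreated. With the gate on each cell the dendritic-like counts were 12 over STING and 23 over untreated. At a log2 ratio of 1 they were 6 and 1. With the members kept for clustering, members past the fold upward in NK-like cells rose from 2 to 8 for the combination over untreated and from 0 to 3 for LTβR, and without the count minimum the first was 4. The share of all genes past the fold was not computed under these alternatives, so their counts have no background beside them. Neutrophil-like, B- or plasma-like and plasmacytoid dendritic-like values rest on few cells or few UMIs per cell.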

Other observations

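In the 3 unnamed clusters together the summed member level was 7057, 6016, 6803 and 5038 CPM in the untreated, STING, LTβR and combination libraries. Doublet scores of 0.2 and over were more frequent there, at 27.2%, 17.1%, 17.8% and 13.9% of cells, than in T-like cells, at 0.828%, 0.739%, 0.726% and 0.900%.

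Neutrophil-like cells showed the comparator list of interferon-γ-induced genes at a median log2 ratio of 0.54 for STING over untreated (6 genes) and -0.57 for LTβR over untreated (7 genes). The members had 0.26 and 0.10 in the same comparisons.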
